A study of Mus musculus with 2 samples.

Results

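Keratins were described across the cells of mouse prostate tumours, measured by single-cell RNA-seq (10x Genomics 3′ chemistry) in 2 libraries. The family was taken as every gene of the deposited feature list whose symbol is Krt followed by a number and at most 1 letter, which leaves out keratin-associated proteins and genes named as pseudogenes. One gene it takes, Krt74, is a pseudogene in the GENCODE M21 annotation and had no count. This gave 51 genes of 28000. Of these, 27 are type I keratins, 23 are type II keratins and 1, Krt222, belongs to neither type. Cells with more than 200 and fewer than 7000 genes and under 15% mitochondrial counts were kept.

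The DoubleTg library, labelled prostatic adenocarcinoma, came from hHGFtg:H11hMET/+:PBCre4 mice, whose sampled tissue held high-grade intraepithelial neoplasia beside cancer, according to the study. The TripleTg library came from prostatic carcinoma of mice that carry, in addition, the Ctnnb1 L(Ex3)/+ allele, which loses exon 3 under Cre and then makes a stabilised β-catenin. Both groups share the human HGF transgene, expressed ubiquitously, and the human MET transgene (hMETtg), expressed where PBCre4, driven by the probasin promoter, has acted in prostate epithelium. The tissue of both groups was prostate, and neither the age at sampling of these libraries nor the number of mice in each was given in the sources used here. With 1 library per genotype there is no replicate, so no difference between the genotypes could be tested, and a genotype cannot be told apart from its animal, its dissociation or its sequencing run. The intervals below are 95% intervals of counting error alone.

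Keratins are the intermediate filament proteins of epithelia. A type I (acidic) and a type II (basic) keratin pair to form each filament, so that pairs such as Krt8 with Krt18 or Krt5 with Krt14 are expressed together. Krt8 and Krt18 mark simple and luminal epithelium, Krt5 and Krt14 mark the basal layer of the prostate and of stratified epithelia, and a large set of keratins is known from the hair shaft, the hair root sheaths and the nail. In mouse the type I genes lie together on chromosome 11 and the type II genes on chromosome 15. Here 27 members were placed on chromosome 11 and 24 on chromosome 15 of GRCm38, with Krt18 (chr15:102028180-102032027, plus strand) as the 1 type I gene of chromosome 15, next to Krt8 (chr15:101996698-102004482, minus strand).

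The DoubleTg library held 12072 barcodes, of which 10598 passed the limits with a median of 16761 unique molecules (UMIs) per cell. All 9492 barcodes of the TripleTg library passed, with a median of 20097 UMIs. The libraries shared 30 barcodes, 29 of them among the cells kept. Cells were clustered with the keratins left out of the genes used, and clusters were named from marker lists that hold no keratin, so that keratin levels played no part in the classes. Levels are given as UMIs of the gene per 1000000 UMIs of a class (CPM). Luminal-like cells numbered 5006 in DoubleTg (10 clusters) and 4273 in TripleTg (7 clusters), basal-like cells 1879 and 658, and seminal vesicle-like cells 126 and 586. Epithelial-like clusters that went against these lists stayed unnamed: cluster 22 of DoubleTg (0.472% of the library; led by Atp6v1g3 and Foxi1), and in TripleTg cluster 3 (6.33%; led by Tchh, Lce3f, Cnfn and Rptn), cluster 10 (3.71%; led by Reg3b, Reg1 and Lgals4) and cluster 14 (2.83%; led by Mt4, Krtap13-1, Gprc5d and Krtdap). The luminal-like cells of the libraries were not of 1 kind. Sbp and Msmb, secretory genes of the prostate, were near or at 0 in TripleTg luminal-like clusters (at most 2.94 CPM of Sbp and 0 CPM of Msmb), while Sbp ranged from 913 to 336729 CPM over the DoubleTg ones. Macrophage-like cells of DoubleTg had 2446 CPM of Sbp, so the lowest of these levels lie within the background. Basal-like cells were not of 1 kind either. In TripleTg cluster 13, with 634 of the basal-like cells, the urothelial marker list had a mean log2 ratio of 1.08 over the other cells of its library. It was -2.42 in TripleTg cluster 24, and -2.08 and -2.36 in DoubleTg clusters 4 and 5. What this means for the keratin levels was not tested.

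Of the 51 keratins, 42 had UMIs in both libraries, 4 in TripleTg alone and 1 in DoubleTg alone, and 4 (Krt24, Krt26, Krt40 and Krt74) had none. A level of 20 CPM in some class of at least 50 cells was reached by 25 members, which are named below; the other 26 had at most 356 UMIs in DoubleTg and 890 in TripleTg. Keratins made up 1.38% of the UMIs of the cells kept in DoubleTg (3541792 UMIs) and 1.39% in TripleTg (3195559 UMIs). Simple epithelial keratins held most of these: 2964418 UMIs in DoubleTg and 2888978 in TripleTg. The stratified basal keratins Krt5, Krt14 and Krt15 had 366629 UMIs in DoubleTg and 128243 in TripleTg. The 27 hair, root sheath and other keratins had 1228 UMIs in DoubleTg and 26307 in TripleTg.

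**Figure D1:**
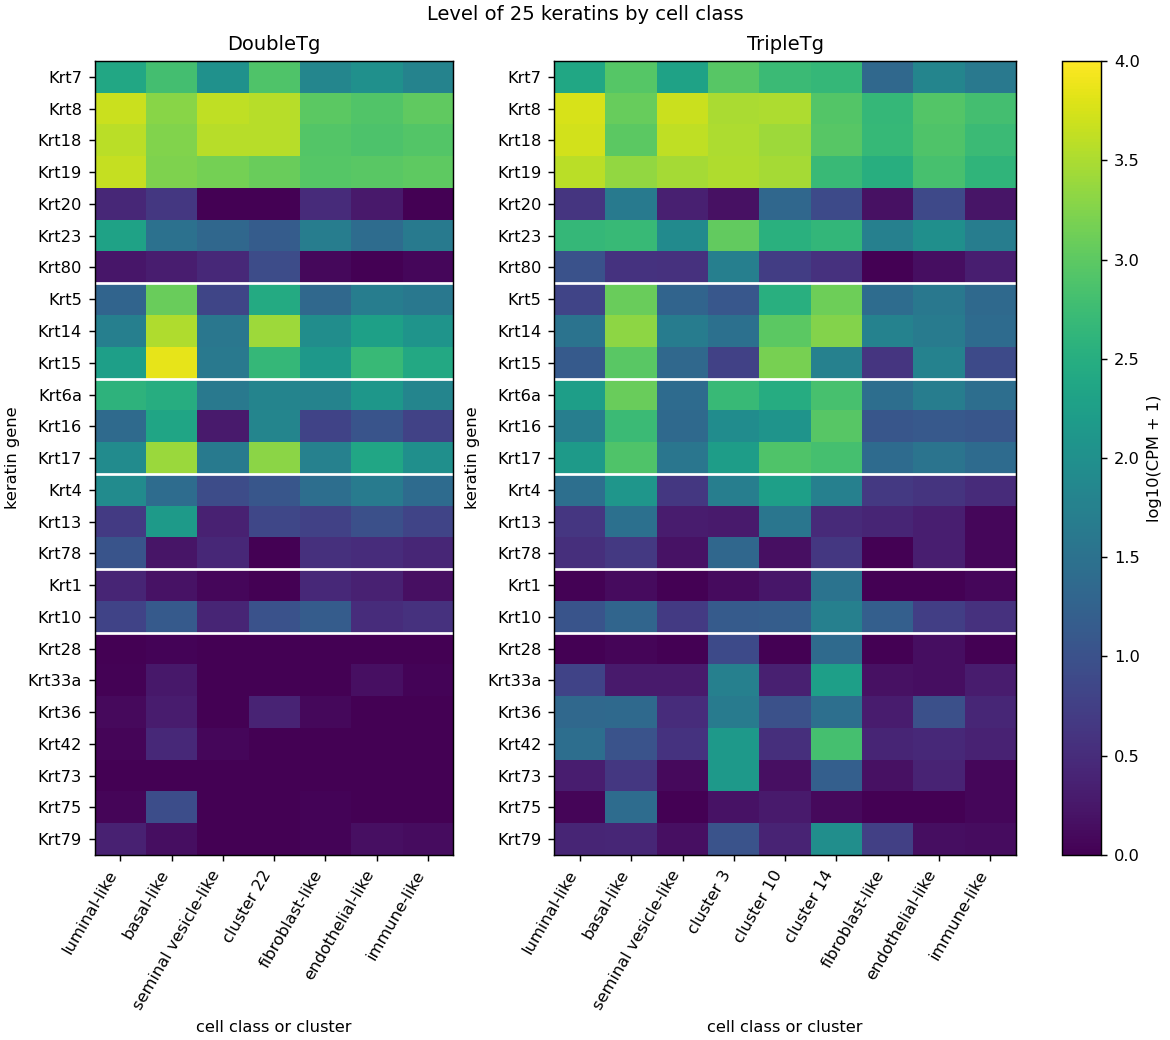
Level of the 25 named keratins as log10(CPM + 1), with genes in rows, grouped by role between white lines, and cell classes or unnamed epithelial-like clusters in columns, for each library. Krt8, Krt18 and Krt19 are high in luminal-like and seminal vesicle-like cells of both libraries, Krt5, Krt14 and Krt15 in basal-like cells, and the lowest block, the hair and root sheath keratins, has levels of at least 20 CPM in TripleTg and none in DoubleTg.

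The simple epithelial keratins carried the luminal signal. Krt8, the type II partner of Krt18, was at 4753 CPM (interval 4744 to 4763) in DoubleTg luminal-like cells and at 5714 CPM (5701 to 5727) in TripleTg ones. Krt18 was at 3786 CPM (3777 to 3794) and 5354 CPM (5341 to 5366). Krt19, a type I keratin with no fixed type II partner, was at 4393 CPM in DoubleTg and 3838 CPM in TripleTg luminal-like cells. In DoubleTg, Krt19 was thus above Krt18 in luminal-like cells, and in TripleTg it was below. When each cell was thinned to 5000 UMIs, Krt8 was found in 99.9% of luminal-like cells of either library.

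Cells that should lack these genes also held them. Macrophage-like cells, the immune class of at least 50 cells found in both libraries, had 191 CPM of Krt8 in DoubleTg and 622 CPM in TripleTg, and at 5000 UMIs per cell 48.9% and 78.9% of them had a Krt8 UMI (median depths 10324 and 10051 UMIs). In DoubleTg the other immune-like classes were higher, with 1298 CPM in T and NK-like, 2726 CPM in B and plasma-like and 386 CPM in dendritic-like cells; TripleTg had no class named T and NK-like or B and plasma-like. Free RNA and doublets can both give such counts and were not told apart. The macrophage-like level is given below as the background of each library.

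Seminal vesicle-like cells were simple-keratin cells with little else. Krt8 was at 4083 CPM in DoubleTg and 4752 CPM in TripleTg, and Krt18 at 3710 and 4207 CPM. Krt19 was at 1447 CPM in DoubleTg and 2858 CPM in TripleTg (log2 ratio 0.98, interval 0.95 to 1.02), and Krt7 (log2 ratio 0.95) and Krt23 (1.98) were also higher in TripleTg. Apart from Krt8, Krt18 and Krt19, keratins made up 0.0305% of the UMIs of this class in DoubleTg and 0.0471% in TripleTg. The 2 TripleTg seminal vesicle-like clusters were unlike each other. Cluster 11, led by Crisp1, had 6036 CPM of Krt8 and 3754 CPM of Krt19, and cluster 18, led by Sva and Svs1, had 1303 and 451 CPM. DoubleTg had 1 such cluster of 126 cells, so the class level in TripleTg follows the mix of its clusters.

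Krt7, a simple and transitional epithelial type II keratin, was higher in basal-like than in luminal-like cells of both libraries. It was at 629 CPM in basal-like and 246 CPM in luminal-like cells of DoubleTg, and at 874 and 240 CPM in TripleTg. Krt23, a type I keratin of simple epithelium, was at 199 CPM in DoubleTg and 455 CPM in TripleTg luminal-like cells. In basal-like cells Krt23 was at 30.3 CPM in DoubleTg, where macrophage-like cells had 4.03 CPM and T and NK-like cells 80.7 CPM, and at 494 CPM in TripleTg, where they had 47.6 CPM. At 5000 UMIs per cell a Krt23 UMI was found in 8.22% of DoubleTg and 74.3% of TripleTg basal-like cells. The highest Krt23 level of any class was 1085 CPM, in the unnamed TripleTg cluster 3.

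Krt20 and Krt80 were low members of this group. Krt20, known from urothelium and gut, was at 3.48 CPM in DoubleTg and 42.8 CPM in TripleTg basal-like cells. Krt80 was at 0.75 CPM in DoubleTg and 9.24 CPM in TripleTg luminal-like cells, and reached 52.3 CPM in TripleTg cluster 3.

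**Figure D2:**
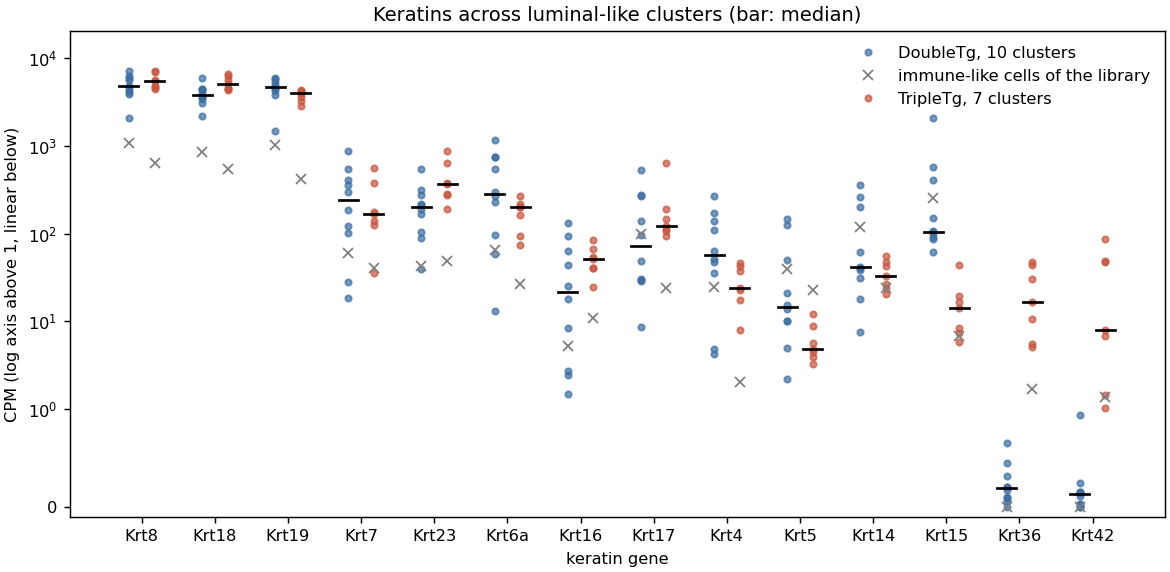
CPM of 14 keratins in each luminal-like cluster (points; 10 in DoubleTg, blue, and 7 in TripleTg, red), with the median over clusters as a bar and the level of all immune-like cells of the library (4 classes in DoubleTg, 2 in TripleTg) as a cross, on an axis that is logarithmic above 1 and linear below. Krt8, Krt18 and Krt19 sit above 1000 CPM in every cluster, and Krt15 of most DoubleTg clusters lies under the cross. Krt36 and Krt42 lie higher in TripleTg clusters, but for Krt42 the lowest of these (1.03 CPM) is near the highest DoubleTg cluster (0.938 CPM).

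Keratin levels varied among the luminal-like clusters. Over the 10 DoubleTg clusters Krt8 ranged from 2058 to 6968 CPM with a median of 4753, and Krt18 from 2179 to 5859 CPM. The lowest Krt8, Krt18, Krt19 and Krt23 levels were in cluster 8, in which Sbp took 336729 CPM. Over the 7 TripleTg clusters Krt8 ranged from 4461 to 7025 CPM and Krt18 from 4331 to 6455 CPM. Krt7 ranged from 18.4 to 863 CPM in DoubleTg and from 35.7 to 553 CPM in TripleTg.

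Krt6a, a type II keratin induced in wounds and hyperproliferation, ranged in DoubleTg luminal-like clusters from 13.1 CPM in cluster 8 to 1171 CPM in cluster 1, which was led by interferon-response genes (Ifit1, Ifit3, Rsad2). It was at 735 CPM in cluster 3, led by Msln, Ctse and Psca, and at 745 CPM in cluster 12, led by Srpx and Sprr2f. The TripleTg cluster led by interferon-response genes (cluster 16) had 201 CPM of Krt6a, close to the median of 200.2 CPM over the TripleTg clusters, but 637 CPM of Krt17, against a median of 122 CPM. The DoubleTg interferon cluster had 534 CPM of Krt17, against a median of 72.7 CPM. Krt17, a type I keratin of activated and basal keratinocytes, was thus highest, of the luminal-like clusters, in the interferon cluster of either library.

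The basal keratins were highest, among DoubleTg luminal-like clusters, in clusters 6 and 2. Cluster 6, led by Gsdmc2, Lypd2 and Cyp2f2, had 2056 CPM of Krt15, 360 CPM of Krt14, 267 CPM of Krt4 and 539 CPM of Krt23. Its Krt4, Krt7 and Krt23 levels were the highest of the 10 clusters. Cluster 2, the cycling cluster, had 564 CPM of Krt15 and 258 CPM of Krt14, and the highest Krt5 (146 CPM) and Krt13 (19.1 CPM). Krt15 was at 62.0 to 404 CPM in the other 8 clusters and at 123 CPM in macrophage-like cells.

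Of the basal keratins, Krt15 differed most between the libraries in basal-like cells, although these cells also differ in the urothelial markers. Krt15, a type I keratin of basal and progenitor-rich layers (chr11:100131758-100135928, minus strand), was the most abundant keratin of DoubleTg basal-like cells, at 7211 CPM (interval 7178 to 7244). In TripleTg basal-like cells it was at 950 CPM (936 to 965), which is 7.59-fold lower (log2 ratio -2.92). At 5000 UMIs per cell, 98.1% of DoubleTg and 42.3% of TripleTg basal-like cells had a Krt15 UMI. The DoubleTg basal-like clusters were at 6914 and 7455 CPM, and the TripleTg ones at 970 CPM (cluster 13) and 594 CPM (cluster 24, of 24 cells).

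Krt5 did not follow Krt15. Krt5, the type II keratin of the basal layer, was at 1196 CPM (interval 1183 to 1210) in DoubleTg and 1208 CPM (1192 to 1225) in TripleTg basal-like cells, with a log2 ratio of 0.01 (-0.01 to 0.04). Its type I partner Krt14 was at 3356 CPM in DoubleTg and 2064 CPM in TripleTg, a log2 ratio of -0.70. A Krt5 UMI was found at 5000 UMIs per cell in 92.5% of DoubleTg and 90.3% of TripleTg basal-like cells, against 9 of 264 and 17 of 413 macrophage-like cells.

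In luminal-like cells Krt5 was at 18.6 CPM in DoubleTg and 5.62 CPM in TripleTg, against 12.7 and 8.35 CPM in macrophage-like cells and 55.6 CPM in DoubleTg T and NK-like cells. Krt14 was at 53.2 and 31.8 CPM there, against 54.5 and 10.8 CPM in macrophage-like cells and 170 CPM in T and NK-like cells. Krt15 was at 181 CPM in DoubleTg and 12.5 CPM in TripleTg luminal-like cells, against 123 and 2.66 CPM in macrophage-like cells and 337 CPM in T and NK-like cells. The DoubleTg luminal-like levels of the 3 genes thus lie below those of T and NK-like cells of the library. Endothelial-like cells of TripleTg held 103 UMIs of Krt5, 116 of Krt14 and 150 of Krt15 among 2615154 UMIs. These shares exceed those of TripleTg luminal-like cells. What part of the luminal-like levels is background was not tested.

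The activated keratins differed in direction from each other in basal-like cells. Krt6a was at 314 CPM in DoubleTg and 1214 CPM in TripleTg (log2 ratio 1.95). In TripleTg basal-like cells Krt6a, Krt5 and Krt8 thus held nearly equal parts of the type II UMIs (26.2%, 26.0% and 25.3%), while in DoubleTg Krt8 led with 47.2%. Krt16, its usual type I companion in activated keratinocytes, was at 221 and 536 CPM (log2 ratio 1.28). Krt17 was the opposite, with 2519 CPM in DoubleTg and 788 CPM in TripleTg (log2 ratio -1.68). In luminal-like cells the signs of Krt6a and Krt17 were exchanged: Krt6a was at 381 CPM in DoubleTg and 174 CPM in TripleTg, and Krt17 at 84.4 and 149 CPM.

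Some markers of squamous epithelium went with these basal levels. The summed level of the squamous list, which holds no keratin, was 1787 and 1779 CPM in the DoubleTg basal-like clusters and 4829 and 2833 CPM in the TripleTg ones. Most of it was Sprr1a (1623 and 1502 CPM, against 2910 and 1972 CPM) and Ivl (40.2 and 84.7 CPM, against 1315 and 418 CPM). Lor, of the same list, was lower in the TripleTg clusters (23.9 and 20.8 CPM, against 8.96 CPM or less), and the ranges of Krtdap overlapped (1.54 and 6.35 CPM, against 1.58 and 4.48 CPM). Their part in the keratin levels was not tested.

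Of the mucosal keratins, Krt4 differed in opposite directions in the luminal-like and basal-like cells. Krt4, a suprabasal type II keratin of wet stratified epithelia, was at 84.4 CPM in DoubleTg and 27.8 CPM in TripleTg luminal-like cells. In basal-like cells it was at 128 CPM in TripleTg and 5.10-fold lower in DoubleTg. Krt13, its type I partner, was lower in TripleTg in basal-like cells (152 and 29.3 CPM) and at 3.77 and 3.35 CPM in luminal-like cells. Krt78 was at 9.82 CPM in DoubleTg and 2.41 CPM in TripleTg luminal-like cells. The unnamed TripleTg cluster 10 was highest of the TripleTg classes in Krt4 (183 CPM), Krt13 (36.4 CPM), Krt15 (1487 CPM) and, with basal-like cells, in Krt17 (793 CPM), while it kept 3204 CPM of Krt8.

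Epidermal suprabasal keratins stayed low. Krt10 was at 5.43 CPM in DoubleTg and 9.81 CPM in TripleTg luminal-like cells, and Krt1, its type II partner in epidermis, at 1.64 and 0.0471 CPM. In the unnamed TripleTg cluster 14 Krt10 reached 54.1 CPM and Krt1 32.9 CPM, but at 5000 UMIs a Krt1 UMI was in 2 of 255 cells of that cluster. The other epidermal members, Krt2, Krt9 and Krt77, had 5, 0 and 72 UMIs in the DoubleTg library and 2, 3 and 127 in the TripleTg library.

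The hair and root sheath keratins were found in the TripleTg library. No member of this group reached 20 CPM in any DoubleTg class, and 7 did in TripleTg. Apart from Krt75, each of these was highest in cluster 3 or cluster 14 among the TripleTg classes. The share of all genes with such a pattern was not computed. Krt42, a type I keratin of nail and hair tissue (chr11:100262882-100269871, minus strand), had 75 UMIs in the DoubleTg library and 11639 in the TripleTg library. Krt36, a type I hair keratin (chr11:100102007-100105626, minus strand), had 80 and 4596 UMIs. Krt33a, a type I hair shaft keratin (chr11:100011195-100016212, minus strand), had 33 and 3170. Krt73, a type II keratin of the inner root sheath (chr15:101793308-101802346, minus strand), had 0 and 3118. Krt79, a type II keratin, had 294 and 1149 UMIs, and Krt28, a type I keratin of the inner root sheath (chr11:99364872-99374903, minus strand), had 2 and 308.

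The promoter windows of 4 of these genes are shown because the genes were near or at 0 in DoubleTg and present in TripleTg. They run from 250 bases before to 50 bases after the RefSeq start on GRCm38.p6 and are printed 5′ to 3′ on the strand of the gene. Capitals mark CTTTGA or its reverse complement TCAAAG (a form of the core of TCF/LEF sites, through which β-catenin acts). Capitals also mark TATAAA or TTTATA (the letters of the TATA box).
Krt42, chr11:100269902-100270201, minus strand: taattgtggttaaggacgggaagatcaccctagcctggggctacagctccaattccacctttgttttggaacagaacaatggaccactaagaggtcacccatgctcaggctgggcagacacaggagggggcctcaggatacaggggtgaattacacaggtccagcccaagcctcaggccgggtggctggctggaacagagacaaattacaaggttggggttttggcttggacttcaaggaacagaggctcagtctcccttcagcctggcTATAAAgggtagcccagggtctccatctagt
Krt73, chr15:101802311-101802610, minus strand: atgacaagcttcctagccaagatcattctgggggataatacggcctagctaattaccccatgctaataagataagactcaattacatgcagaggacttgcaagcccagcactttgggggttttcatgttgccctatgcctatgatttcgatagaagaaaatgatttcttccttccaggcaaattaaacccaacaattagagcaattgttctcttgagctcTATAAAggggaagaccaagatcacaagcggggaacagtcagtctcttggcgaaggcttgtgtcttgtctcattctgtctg
Krt36, chr11:100105577-100105876, minus strand: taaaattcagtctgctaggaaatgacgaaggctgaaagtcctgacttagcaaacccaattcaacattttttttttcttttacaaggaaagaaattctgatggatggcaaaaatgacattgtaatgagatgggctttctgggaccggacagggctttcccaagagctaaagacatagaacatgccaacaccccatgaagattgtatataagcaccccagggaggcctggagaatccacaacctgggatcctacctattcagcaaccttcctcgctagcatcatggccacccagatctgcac
Krt28, chr11:99374854-99375153, minus strand: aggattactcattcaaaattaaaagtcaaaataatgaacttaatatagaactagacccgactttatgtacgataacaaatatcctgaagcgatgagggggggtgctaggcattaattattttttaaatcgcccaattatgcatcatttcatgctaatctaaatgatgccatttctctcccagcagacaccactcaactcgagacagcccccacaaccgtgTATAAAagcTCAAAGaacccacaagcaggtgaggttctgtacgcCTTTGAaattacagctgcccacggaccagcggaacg
CTTTGA or TCAAAG was present in the Krt28 window and in none of the other 3. CTTTGT, another form of that core, was neither marked nor counted, and the Krt42 window holds it in small letters. A window was found for 35 keratins (36 windows, Krt13 with 2). Of the 20 windows of the hair, root sheath and other group, 6 held CTTTGA on either strand, against 16.0% of all 32851 windows of the table. TATAAA on either strand was in 14 of those 20, against 13.6% of all windows; in Krt73 and Krt28 it begins 30 bases before the start, and in Krt42 it lies after the RefSeq start, which is itself outside the gene as GENCODE M21 places it. A match of letters is a description and shows no binding.

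**Figure D3:**
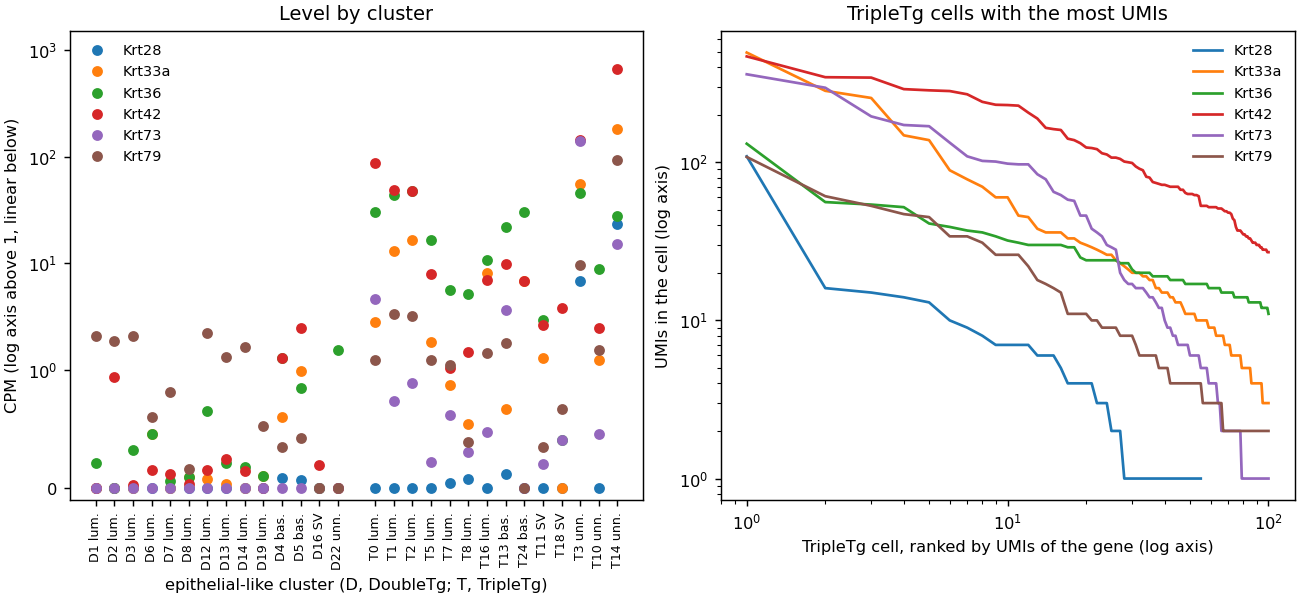
Left, CPM of 6 hair and root sheath keratins in each epithelial-like cluster of DoubleTg (D) and TripleTg (T), on an axis that is logarithmic above 1 and linear below (lum., luminal-like; bas., basal-like; SV, seminal vesicle-like; unn., unnamed). Right, UMIs of the same genes in the TripleTg cells that had most of them, ranked, on log axes. Krt42, Krt33a, Krt73, Krt28 and Krt79 are highest in T3 or T14 and Krt36 in the luminal-like cluster T2, and the highest cells hold 467 UMIs of Krt42, 494 of Krt33a and 360 of Krt73.

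Clusters 3 and 14 of TripleTg had the highest levels of Krt42, Krt33a, Krt73, Krt28 and Krt79, while luminal-like cells held 59.7% of the Krt36 UMIs. In cluster 14 Krt42 was at 662 CPM (interval 644 to 681), Krt33a at 182 CPM, Krt79 at 93.1 CPM, Krt36 at 27.8 CPM, Krt28 at 23.1 CPM and Krt73 at 15.1 CPM. In cluster 3 Krt42 was at 144 CPM, Krt73 at 141 CPM, Krt33a at 54.7 CPM and Krt36 at 45.4 CPM. Cluster 3 held 89.1% of all Krt73 UMIs of the library and cluster 14 held 58.0% of those of Krt79. Both clusters also expressed hair and cornification genes that are no keratins, such as Krtap13-1 and Gprc5d in cluster 14 and Tchh in cluster 3.

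The clusters differed in the other keratins. Cluster 14 had the basal pair, with Krt5 at 1302 CPM and Krt14 at 1812 CPM, together with Krt16 at 905 CPM and Krt6a at 684 CPM, and its Krt8 was at 857 CPM. Cluster 3 had a luminal set, with Krt8 at 3130 CPM, Krt18 at 3238 CPM and Krt19 at 3356 CPM. Its Krt5 was at 11.2 CPM and its Krt14 at 29.5 CPM, against 8.35 and 10.8 CPM in macrophage-like cells. Endothelial-like cells held higher shares of both (103 and 116 UMIs among 2615154).

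Luminal-like cells of TripleTg also had Krt42, at 26.5 CPM, and Krt36, at 21.6 CPM, against 0.121 and 0.252 CPM in DoubleTg. Over the 7 luminal-like clusters Krt42 ranged from 1.03 CPM in cluster 7 to 87.6 CPM in cluster 0, the cycling cluster, with 49.0 CPM in cluster 1 and 48.0 CPM in cluster 2. Macrophage-like cells had 1.52 CPM of Krt42, so clusters 7 and 8 (1.46 CPM) did not exceed that level. Krt36 ranged from 5.09 CPM in cluster 8 to 47.4 CPM in cluster 2, against 1.90 CPM in macrophage-like cells. Endothelial-like cells held 22 UMIs of Krt36 among 2615154, a higher share than in clusters 7 and 8. The summed level of the 9 Wnt target genes of the lists was 238 to 448 CPM in these clusters and was lowest in cluster 7 (238 CPM) and cluster 8 (263 CPM). The clusters share depth and free RNA, so what follows is a description over 7 clusters of 1 library. Spearman's rho of the Wnt sum was 0.857 with Krt42, 0.714 with Krt33a and Krt79, 0.679 with Krt36 and 0.536 with Krt73. It was -0.757 with Krt28 and -0.334 with Krt75, which had only 3 and 17 UMIs in these clusters. It was also 0.857 with Krt5, which was at 12.1 CPM or less in these clusters, and -0.857 with Krt19. In the 10 DoubleTg luminal-like clusters the Wnt sum was 6.97 to 33.6 CPM, and rho was 0.255 with Krt42, 0.265 with Krt33a and 0.139 with Krt36, at levels under 1 CPM.

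The counts of the hair keratins sat in few cells. In TripleTg a Krt42 UMI was found in 728 cells, but the 10 highest cells held 25.6% of the UMIs and 1 cell held 467. For Krt33a, found in 322 cells, the 10 highest cells held 52.8%, and 1 cell had 494. For Krt73, found in 195 cells, they held 55.6%, with 360 UMIs in the highest cell. Krt36 was spread more widely, with 11.1% of its UMIs in the 10 highest of 1112 cells. Krt27, a type I inner root sheath keratin under the limit for naming, had 134 of its 141 UMIs in 1 cell of cluster 3. The counting intervals above treat UMIs as independent and are therefore too narrow for these genes.

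Cells with a high level of one hair keratin held others in part. A count of at least 10 UMIs was reached by 184 TripleTg cells for Krt42, 40 for Krt73, 58 for Krt33a and 123 for Krt36. Among the 184 cells, 28.8% had a Krt36 UMI and 20.1% a Krt79 UMI, against 14.8% and 3.96% of the other epithelial-like cells. Among the 40 Krt73 cells, 35.0% had Krt42 (9.64% of the others) and 17.5% had Krt72, a second type II keratin of the inner root sheath (0.149% of the others), but 7.50% had Krt33a (4.34%). Among the 58 Krt33a cells, 55.2% had Krt36 (14.8%). Krt8 was present in 184 of the 184 Krt42 cells, at 3052 CPM, and in 40 of the 40 Krt73 cells, at 1866 CPM. Cells were chosen by UMIs and differ in depth from the others, so the shares are a description.

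Near-identical copies could share reads within this family. Krt42 lies beside Krt14, Krt16 and Krt17 and resembles them, and in DoubleTg basal-like cells, with 157529 UMIs of those 3 genes, Krt42 had 50 UMIs (0.0317% of their number). In TripleTg cluster 14 it had 4737 UMIs against 24092 (19.7%). Krt33a had 3170 UMIs in TripleTg and its neighbour Krt33b 51. The counts of Krt33a and Krt33b, of Krt6a and Krt6b and of Krt81, Krt83 and Krt86 stay uncertain in how reads were split between copies.

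The remaining hair, root sheath and other members gave small counts. Krt75, a type II keratin of the companion layer, was a basal member in both libraries, at 7.93 CPM in DoubleTg and 24.7 CPM in TripleTg basal-like cells, and 10 cells held 70.5% of its TripleTg UMIs. Without the 10 cells with most Krt75 UMIs in each library, its log2 ratio in basal-like cells went from 1.64 to 0.21. Krt39 had 96 UMIs in DoubleTg and 890 in TripleTg, Krt84 had 7 and 173, Krt34 had 1 and 127, and Krt72 had 0 and 88. Krt32, a hair keratin, was higher in DoubleTg, with 356 UMIs in DoubleTg and 150 in TripleTg; its level in basal-like cells was 10.2 and 1.38 CPM.

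Type I keratins outnumbered type II keratins in every epithelial-like class. In DoubleTg basal-like cells type I made up 1.69% and type II 0.412% of all UMIs, a ratio of 4.11 (interval 4.08 to 4.13). In TripleTg basal-like cells the shares were 0.815% and 0.464%, a ratio of 1.76 (1.74 to 1.77). The excess in DoubleTg came from Krt15, which held 42.6% of type I UMIs, and from Krt14 (19.8%) and Krt17 (14.9%). In luminal-like cells the ratio was 1.59 in DoubleTg and 1.61 in TripleTg. These are molecules counted at the 3′ end and not protein.

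**Figure D4:**
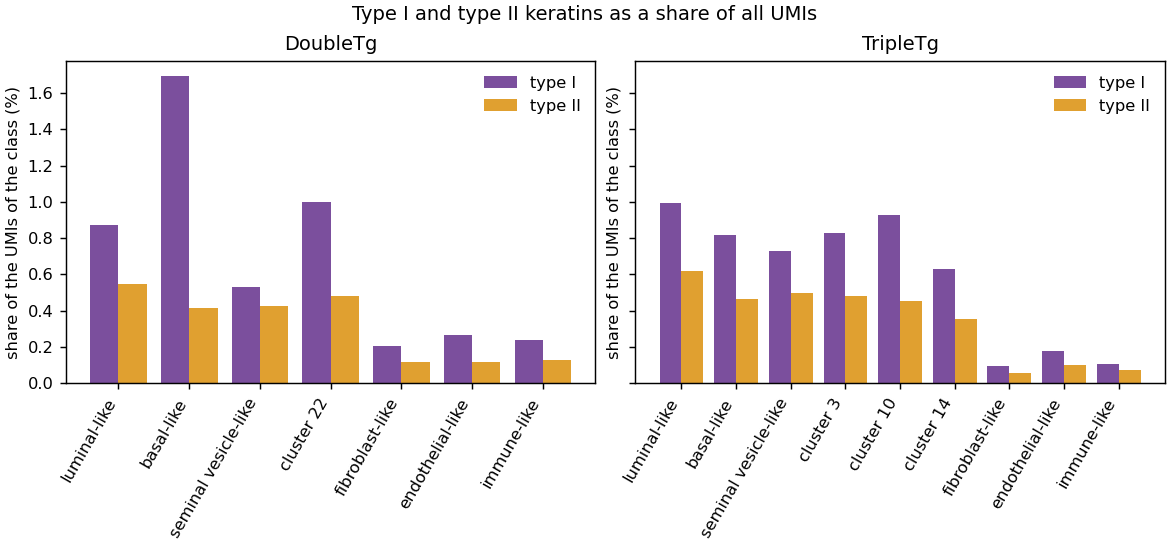
Share of the UMIs of each class that were type I (purple) or type II (orange) keratins, in percent, for each library. The type I bar of DoubleTg basal-like cells (1.69%) is the highest, and type I exceeds type II in every class drawn.

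The keratins as a whole took 1.42% of luminal-like UMIs in DoubleTg (interval 1.421 to 1.424) and 1.61% in TripleTg. In basal-like cells they took 2.10% in DoubleTg and 1.28% in TripleTg, and in seminal vesicle-like cells 0.955% and 1.23%. Macrophage-like cells had 0.0812% and 0.173%, and the B and plasma-like cells of DoubleTg 0.875%. Basal-like cells were thus above luminal-like cells in DoubleTg and below them in TripleTg. In TripleTg basal-like cells Krt19 was the leading type I keratin, with 27.1% of type I UMIs, ahead of Krt14 (25.3%).

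Counted over members, the keratins of luminal-like cells differed in both directions. With at least 5 CPM in either library, 18 of 51 members could be compared in luminal-like cells. Of these, 6 were at least 2-fold higher in TripleTg (Krt16, Krt23, Krt33a, Krt36, Krt42, Krt80), against 11.7% of all 9062 genes compared. At least 2-fold lower were 5 (Krt4, Krt5, Krt6a, Krt15, Krt78), against 12% of all genes. The median log2 ratio was 0.38 over the 18 members and 0.02 over all genes. A member that passes through the library where it is high is bound to differ, and this holds for Krt33a, Krt36, Krt42, Krt78 and Krt80. The log2 ratio of Krt5 went from -1.73 to -0.71 without the 8% of cells with the highest doublet scores. Krt5 and Krt15 of DoubleTg luminal-like cells lie below the pooled immune-like level (39.1 and 254 CPM), so neither could be compared after subtraction of that level.

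Of the 11 type I members compared in luminal-like cells the median log2 ratio was 0.85, with 5 at least 2-fold higher and 1 lower. Of the 7 type II members it was -1.13, with 1 higher and 4 lower. Over all genes 11.7% were higher and 12% lower, and Krt33a, Krt36, Krt42 and Krt80 among the higher passed the minimum level through TripleTg alone. Krt8 and Krt18 themselves had log2 ratios of 0.27 and 0.50.

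**Figure D5:**
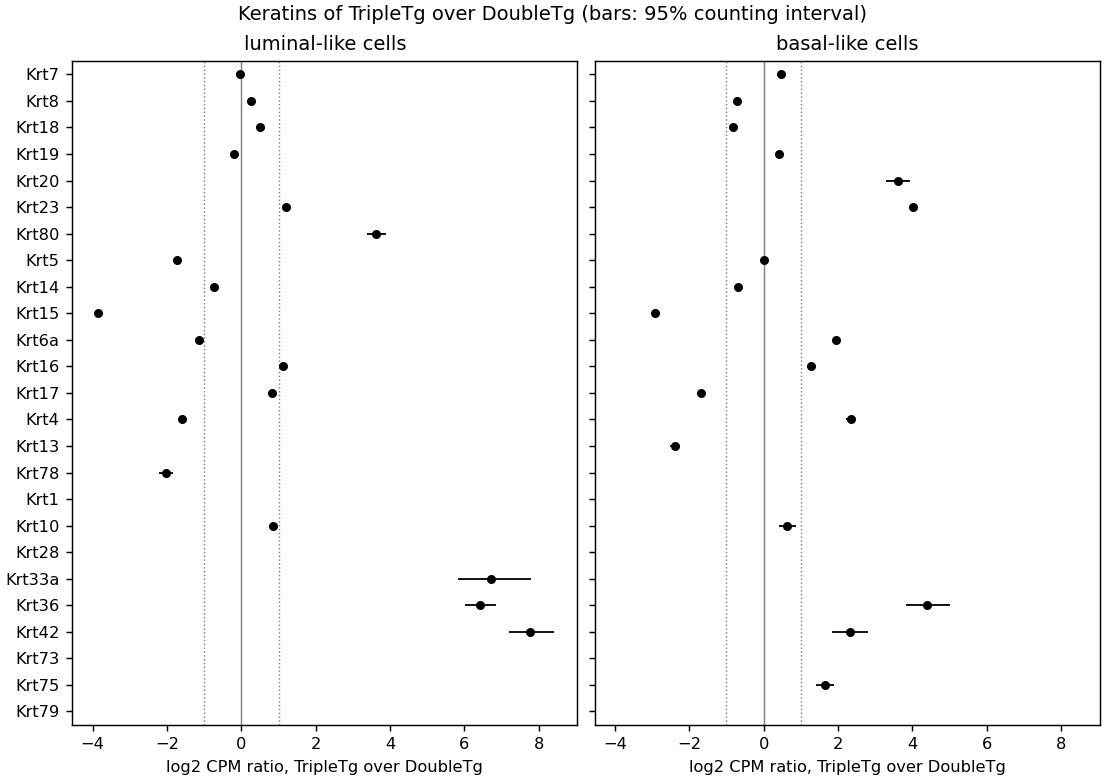
Log2 ratio of CPM, TripleTg over DoubleTg, for named keratins with at least 5 CPM in either library, in luminal-like cells (left) and basal-like cells (right). Points are ratios, bars 95% counting intervals and dotted lines 2-fold; Krt15 is lowest in both panels, and Krt42 is highest in luminal-like cells and Krt36 in basal-like cells.

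In basal-like cells 20 members were compared. At least 2-fold higher in TripleTg were 9 (Krt4, Krt6a, Krt16, Krt20, Krt23, Krt36, Krt39, Krt42, Krt75), against 15.2% of all 8983 genes. At least 2-fold lower were 4 (Krt13, Krt15, Krt17, Krt32), against 14.4% of all genes. The median log2 ratio was 0.55 over the members and -0.06 over all genes. Of the 6 type II members, 3 were higher and none lower, and the 4 lower members were type I. The largest ratio among those with at least 20 CPM was that of Krt36 (21.2-fold, 1.04 against 22.1 CPM), followed by Krt23 (16.3-fold). Krt20, Krt36, Krt39, Krt42 and Krt32 passed the minimum level through 1 library alone. The higher calls of Krt42 and Krt75 rest on few cells. Without the 10 highest cells of each library both came under 2-fold, with a log2 ratio of 0.98 for Krt42.

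Luminal-like cells with hMETtg transcripts were also compared with those without, a split that the study made among epithelial cells. At 5000 UMIs per cell, 4135 DoubleTg cells were hMETtg-positive and 699 negative, and 1385 and 2719 in TripleTg. Positive cells were deeper before thinning (median 37673 against 29103 UMIs in DoubleTg, 33633 against 23176 in TripleTg), and free hMETtg RNA can also make a cell positive.

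In DoubleTg, Krt6a had 434 CPM among positive cells and 136 CPM among the negative (log2 ratio 1.67, interval 1.54 to 1.81), and within clusters the weighted log2 ratio was 0.82. Krt15 was the reverse, at 126 and 505 CPM (log2 -2.00), and -0.82 within clusters. Of 15 members compared, 2 (Krt6a, Krt78) were at least 2-fold higher in positive cells, against 1.98% of all 8805 genes, and 2 (Krt15, Krt20) lower, against 1.85%. Within clusters Krt6a, Krt15 and Krt78 (log2 1.14, and 0.16 within clusters) were all under 2-fold, while Krt16 (0.79, and 1.87 within clusters) and Krt17 (0.57, and 1.09 within clusters) were above it, and Krt20 passed the minimum level in the negative cells alone. Krt8, Krt18 and Krt19 had log2 ratios of 0.33, 0.29 and 0.29, and of -0.01, 0.00 and -0.03 within clusters, so that the pooled difference of these 3 followed the clusters. Krt14 had a pooled log2 ratio of -0.60 and one of 0.61 within clusters.

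In TripleTg, 1 of 17 members was at least 2-fold higher in positive cells (Krt33a, 8.95 against 2.50 CPM, from 62 and 34 UMIs, which passed the minimum level in the positive cells alone), against 0.387% of all 8530 genes, and none was 2-fold lower, against 0.176%. Krt6a was at 212 and 132 CPM (log2 ratio 0.68; 0.45 within clusters). Krt42 had 20.1 CPM among positive cells and 23.3 CPM among the negative. Its log2 ratio was -0.22 (interval -0.51 to 0.08), and 0.21 within clusters. Krt8 and Krt18 had log2 ratios of 0.26 and 0.24, and of 0.18 and 0.15 within clusters.

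Basal and luminal keratins were counted in the same basal-like cells. At 5000 UMIs per cell, at least 2 UMIs of Krt5 or Krt14 together with at least 2 of Krt8 or Krt18 were found in 97.9% of 1727 DoubleTg basal-like cells (interval 97.1% to 98.5%) and in 74.8% of 647 TripleTg ones (71.3% to 78.1%). The background of the luminal pair differs between the libraries: 34.5% of DoubleTg and 73.8% of TripleTg macrophage-like cells had at least 2 UMIs of it. The basal pair was found in 1.89% and 1.21% of macrophage-like cells. In luminal-like cells the double count was 4.24% in DoubleTg and 3.09% in TripleTg, and in macrophage-like cells 1.89% and 0.969%. It was found in 14 of 333 T and NK-like cells, in 5.63% of endothelial-like and in 11.8% of B and plasma-like cells of DoubleTg. The luminal-like share there was not above those of endothelial-like or B and plasma-like cells. Its interval (3.69% to 4.85%) overlapped that of macrophage-like cells (0.618% to 4.36%). In the unnamed clusters it was 70.2% of 47 cells in DoubleTg cluster 22, 66.7% of 300 in TripleTg cluster 10, 39.6% of 255 in cluster 14 and 2.44% of 573 in cluster 3. Doublets also give such cells, and their part was not tested beyond the shares without the cells of highest doublet score. Without those cells the DoubleTg luminal-like share was lower. With all UMIs, or at 1 UMI, the luminal-like share was higher in TripleTg than in DoubleTg. The basal-like shares were nearly equal in the libraries with all UMIs.

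The partners of keratin filaments were compared by a list of 26 genes, of which 25 have a feature. Desmosomal cadherins and plakins anchor keratin filaments at the membrane. In luminal-like cells 16 of the 25 could be compared, of which 5 were at least 2-fold higher in TripleTg (11.7% of all genes) and 3 lower (12% of all genes), with a median log2 ratio of 0.41. Vim, Nes, Synm and Evpl among these passed the minimum level through 1 library alone. With at least 20 CPM, the higher ones were Pkp1 (plakophilin 1, 7.23 and 23.5 CPM in DoubleTg and TripleTg), Dsc2 (desmocollin 2, 20.7 and 51.3 CPM) and Ppl (periplakin, 31.8 and 73.6 CPM). Dst (dystonin), the linker of keratin filaments to hemidesmosomes and a basal marker of the lists used here, was lower, at 101 and 24.7 CPM.

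In basal-like cells 17 partner genes were compared, of which 3 were at least 2-fold higher (15.2% of all genes) and 4 lower (14.4% of all genes), with a median log2 ratio of -0.24. Dsg3, Pkp2 and Nes passed the minimum level through 1 library alone. Dsg3 (desmoglein 3), a cadherin of stratified epithelium, was at 1.28 CPM in DoubleTg and 115 CPM in TripleTg basal-like cells (log2 ratio 6.50). Dsc2 was at 13.1 and 45.9 CPM. The lower ones with at least 20 CPM were the intermediate filament genes Nes (nestin, 37.2 and 2.65 CPM), Lmna (lamin A/C, 1601 and 775 CPM) and Lmnb1 (lamin B1, 120 and 47.0 CPM).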

How the data were processed

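Prostate tumours were dissociated with collagenase and TrypLE and single cells were measured with 10x Genomics 3′ v3 chemistry, 1 library per genotype. The authors aligned reads to mm10 with the transgene sequences added and made the deposited UMI counts with Cell Ranger (6.0.2 in the methods and the submitters' processing notes; the DoubleTg matrix header gives 6.1.1). Counts were used as deposited. For both libraries the number of barcodes in the file differs from the number of cells that the methods give before filtering. The 9492 TripleTg barcodes all pass the limits and equal in number the cells that the methods keep, so this file was already filtered. The 10598 DoubleTg cells kept are more than the methods give, which was not resolved.

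The limits of the study on genes (200 to 7000) and mitochondrial share (15%) were applied. Each library was clustered by itself in scanpy 1.11.5 without keratins (2000 variable genes, 20 principal components, 15 neighbours, Leiden resolution 1). Clusters were named from keratin-free marker lists, and the thresholds for naming were set after the clusters had been seen. They left 1180 DoubleTg cells (11.1%) and 1465 TripleTg cells (15.4%) with no class, and 288 TripleTg cells (3.03%) mixed. The immune-like class pools T and NK, B and plasma, macrophage and dendritic clusters in DoubleTg, but macrophage and dendritic clusters alone in TripleTg, so that levels of the pooled class are not alike. Scrublet marked 273 DoubleTg cells (2.58%) and no TripleTg cell, for a reason that was not resolved, so doublets of TripleTg could not be judged by its calls. No cell was removed as a doublet.

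Counts were summed per class and given as CPM with exact Poisson intervals, shares of cells with exact Clopper-Pearson intervals and ratios with conditional binomial intervals, all at 95% and for counting error only. Shares of cells were taken after thinning to 5000 UMIs, which left out 2171 DoubleTg and 1699 TripleTg cells. A ratio was formed where either group reached 5 CPM, and differences of 2-fold or more were counted. No test was made, since there is 1 library per genotype. TMM factors came from edgeR 4.0.16. The ratio step was checked on simulated counts. Positions are those of GENCODE M21 (GRCm38, the same as mm10) and all 51 members matched.

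Members, lists and comparisons were chosen with earlier results of these data known. Keratins with at least 20 CPM in a class of at least 50 cells were named by rule; the others named in the text (such as Krt27, Krt32, Krt34, Krt39, Krt72 and Krt84) were chosen after their values were seen. Alternatives were the thinned counts, the doublet calls, resolution 0.5, keratins kept in the clustering, TMM, other minimum levels, subtraction of the immune-like level and all epithelial-like cells together. Leaving out the highest 8% of doublet scores, or the 10 cells with most UMIs of each keratin, was added after the data had been seen.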

Additional observations from a re-analysis of the deposited data

Results flagged for a closer look

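For some keratins the log2 ratio of TripleTg over DoubleTg had opposite signs in basal-like and luminal-like cells, with each counting interval on its own side of 0. These intervals are narrow, and the share of all genes with such a pattern was not computed. The difference is given here as basal minus luminal. The difference was 3.95 for Krt4, 3.08 for Krt6a, 0.60 for Krt19 and 0.51 for Krt7, and it was -2.50 for Krt17, -1.33 for Krt18 and -0.996 for Krt8. Between hMETtg-positive and hMETtg-negative luminal-like cells, the log2 ratio of TripleTg minus that of DoubleTg was 0.75 for Krt7 and 0.59 for Krt23, with opposite signs in the libraries. Within clusters the log2 ratio of Krt7 was 0.24 in DoubleTg and 0.15 in TripleTg, so its signs no longer differed, while that of Krt23 was -0.11 and 0.16. None of these differences was tested, because each genotype has 1 library.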

How the results depend on the processing

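With 1 library per genotype the depth limits counting error only, and leaving out a replicate was not possible. No paired analysis was possible because each genotype has 1 library. Causes of the shifts below were not tested. The immune-like level that was subtracted pools unlike classes in the libraries.

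The keratin share of luminal-like cells in DoubleTg (1.42%) was 1.49% at 5000 UMIs per cell, 1.42% without Scrublet doublets and at resolution 0.5, 1.30% with keratins kept in the clustering, 1.41% without the highest 8% of doublet scores and 1.06% after subtraction of the immune-like level; in TripleTg (1.61%) it was 1.55% at resolution 0.5, 1.54% with keratins kept, 1.61% without the highest 8% and 1.43% after subtraction. In basal-like cells of DoubleTg (2.10%) it was 2.07% at 5000 UMIs, 2.11% without Scrublet doublets, 2.12% without the highest 8% and 1.74% after subtraction, and in TripleTg (1.28%) 1.26% at 5000 UMIs and without the highest 8%, 1.31% at resolution 0.5, 1.29% with keratins kept and 1.10% after subtraction.

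The median log2 ratio of the keratins in luminal-like cells (0.38) was 0.19 at 5000 UMIs, 0.31 at resolution 0.5, 0.61 with keratins kept, 0.26 with TMM (which shifted all ratios by -0.118), 0.27 at 20 CPM or more, 0.81 with 1 UMI in each group, 0.71 after subtraction and 0.48 without the highest 8%; in basal-like cells (0.55) it was 0.44 at 20 CPM, 0.63 with 1 UMI, 0.77 after subtraction, 0.33 over all epithelial-like cells and 0.38 without the 10 highest cells. In luminal-like cells 16 of 36 keratins were higher with 1 UMI in each group (6 of 18 in the main count). Lower were 3 of 13 at 20 CPM, 3 of 13 after subtraction and 3 of 22 over all epithelial-like cells (5 of 18 in the main count). In basal-like cells 15 of 31 were higher with 1 UMI (9 of 20 in the main count). Of all genes, 1092 of 9103 were lower over all epithelial-like cells. No such share is given at the other settings, so these counts show only how the list changes. Over all epithelial-like cells, which mix the classes, the log2 ratio was 0.13 for Krt5, -0.31 for Krt6a and -0.89 for Krt4, against the signs in luminal-like (Krt5) and basal-like cells. The partner median was 0.29 at 5000 UMIs and with TMM and 0.14 over all epithelial-like cells in place of 0.41 (luminal-like), and -0.37 and 0.14 in place of -0.24 (basal-like). Of 231 alternative values of 22 keratin ratios past 2-fold, 134 stayed within the interval, 94 moved beyond it and 3 changed sign; 9 of the 22 ratios came under 2-fold in 11 values. Among ratios under 2-fold, those of basal-like Krt8, Krt18 and Krt19 also turned over all epithelial-like cells, to 0.09, 0.30 and -0.25. Those of luminal-like Krt17 and Krt7 turned as well, to -0.67 and 0.36.

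Co-detection in DoubleTg basal-like cells (97.9%) was 96.4% with all UMIs, 99.0% at 1 UMI and 96.0% at 3, and in TripleTg (74.8%) 96.5%, 89.3% and 59.2%. In luminal-like cells of DoubleTg (4.24%) it was 2.87% without Scrublet doublets, 1.56% without the highest 8%, 8.65% with all UMIs, 8.34% at 1 UMI and 3.45% at 3, and in TripleTg (3.09%) 16.0%, 12.2% and 1.49% for the last 3 settings. Over all epithelial-like cells it was 28.9% in DoubleTg and 14.8% in TripleTg.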
